A study of Mus musculus with 2 samples.

Results

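Among alveolar type 2 (AT2) cells of the mouse lung, 689 cells with the highest share of Scgb1a1 transcripts were described, out of 13772 AT2 cells and 18938 barcodes in all. Base cells were barcodes with at least 500 genes, at most 20% mitochondrial transcripts, at least 5000 unique molecular identifiers (UMIs, 1 for each captured transcript molecule) and at least 10% of UMIs from the surfactant protein C gene Sftpc. The Scgb1a1-high cells are the top 5% of these by Scgb1a1 UMIs over total UMIs, taken within each library: 369 of 7380 base cells in the library labelled IPKO and 320 of 6392 in the library labelled WT. They were set against the Scgb1a1-low cells, the lower 50% of the same library by the same share, which numbered 3690 labelled IPKO and 3196 labelled WT.

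The series holds 1 library from IP-/- (IPKO) mice, which lack the prostaglandin I2 receptor encoded by Ptgir, and 1 from wild-type (WT) mice, all male. Per the labels, flow cytometry collected lung cells with the epithelial protein EpCAM on their surface and without Sca-1, CD24, CD45, CD34 or CD31, a gate the submitters use for AT2 cells. Transcripts were tagged near their 3' end with 10x Genomics Chromium chemistry. The labels name no injury or treatment, and give neither the age nor the number of mice behind a library, nor how the receptor was removed. The series title ties this receptor to alveolar regeneration.

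AT2 cells make and store lung surfactant, and they renew themselves and the flat AT1 cells of the gas exchange surface. Scgb1a1 encodes secretoglobin 1A1 (CC10, also called CCSP), the main secreted protein of airway club cells, which also make the secretoglobins Scgb3a2 and Scgb3a1 and the cytochrome P450 Cyp2f2. Mouse lung cells that hold both Scgb1a1 and Sftpc are known at the junction of bronchiole and alveolus, where they are called bronchioalveolar stem cells, and were first described as positive for Sca-1 and CD34, surface proteins that the sort leaves out. RNA freed from broken club cells can also enter droplets of other cells.

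The libraries held 137471506 UMIs in 10014 barcodes (labelled IPKO) and 127287281 UMIs in 8924 barcodes (labelled WT), with medians of 17112 and 18327 UMIs over base cells. Ptgir, the targeted gene (chromosome 7, 16906490 to 16910905, plus strand, GRCm38), went against the labels: it had 19 UMIs in Scgb1a1-high cells labelled IPKO and 0 in those labelled WT, and 313 against 0 in all base cells. Which exons the knockout lacks is not stated in the labels, and 3' tags from exons that remain would check nothing, so the libraries are called by their labels throughout. Whether the libraries were exchanged is not settled by these counts, and an exchange would turn every direction between the libraries. Of the barcode sequences, 79 occurred in both libraries, 1 of them in a Scgb1a1-high cell, and no sequence was a Scgb1a1-high cell in both. No doublet caller was used. With 1 library a genotype and cells that share their library, no difference was tested, and every interval is at the 95% level and covers only the error of counting.

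The Scgb1a1-high cells carried both markers of their name. The rule set their Scgb1a1 level, which is therefore given as a description. In the library labelled IPKO, they held 6 to 6943 Scgb1a1 UMIs a cell with a median of 32, against 0 to 7 with a median of 1 in Scgb1a1-low cells. In the library labelled WT, they held 46 to 1395 UMIs with a median of 130.5, against 0 to 20 with a median of 2. Summed over cells, Scgb1a1 (chromosome 19, 9083636 to 9087958, minus strand) stood at 3545 UMIs per 1000000 UMIs of those cells (CPM) in Scgb1a1-high cells labelled IPKO, against 48.9 CPM in Scgb1a1-low cells. Labelled WT, it stood at 7499 CPM in Scgb1a1-high cells and 151 CPM in Scgb1a1-low cells. The high cells thus held 51.7% of all Scgb1a1 UMIs of base cells labelled IPKO and 33.9% of those labelled WT.

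Scgb1a1 had no gap at the threshold, which fell on a continuous slope. The lowest high cell and the highest cell outside had 1074.3 and 1073.8 CPM labelled IPKO and 4636 and 4617 CPM labelled WT, while the median base cell had 127 and 388 CPM. Within 10% of the lowest high cell lay 53 of the high cells labelled IPKO and 58 of those labelled WT. At least 1 Scgb1a1 UMI was found in 80.4% of base cells labelled IPKO and in 92.5% of those labelled WT. At an equal depth of 5000 UMIs a cell, the ratio of variance to mean of Scgb1a1 was 180 labelled IPKO, or 12.4 without the highest cell, and 17.5 labelled WT, or 15.96 without the highest cell, where the median gene stood at 1.03 and 1.04.

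**Figure D1:**
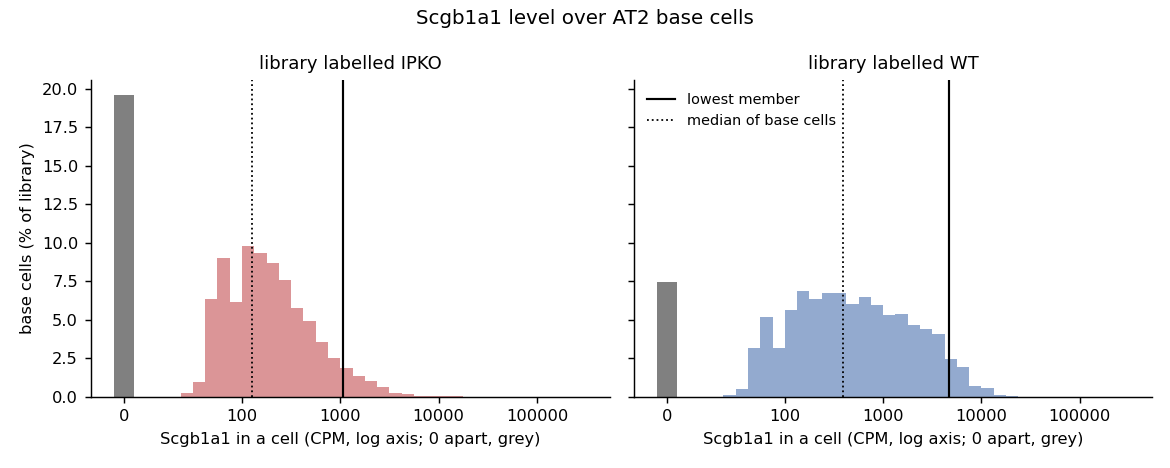
Percentage of base cells (vertical axis) by their Scgb1a1 level in CPM (horizontal log axis, cells with 0 UMIs apart in grey) in the library labelled IPKO (left) and the library labelled WT (right). The solid line marks the lowest Scgb1a1-high cell, at 1074 and 4636 CPM, and the dotted line the median base cell, at 127 and 388 CPM; neither distribution has a second peak above the solid line.

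The choice of cells held up in part when each cell's UMIs were divided at random into 2 parts. Of 369 cells chosen on the first part labelled IPKO, 271 (73.4%, exact interval 68.6% to 77.9%) were again in the top 5% on the second part and 5 fell in its lower 50%. Of 320 chosen labelled WT, 268 (83.8%, 79.2% to 87.6%) were again in the top 5% and 0 fell in the lower 50%. In the part not used for the choice, Scgb1a1 stood at 3463 CPM in the chosen cells and 96.7 CPM in the low cells labelled IPKO, and at 7422 and 183 CPM labelled WT.

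A single barcode stood far above all others. The highest cell labelled IPKO had 6943 Scgb1a1 UMIs among 24333, which is 28.5% of its UMIs and 28.3% of the Scgb1a1 of all high cells of that library. The next cell had 1083 and the next after it 745. That barcode also had 101 Cyp2f2 UMIs, 0 Scgb3a2 and 0 Scgb3a1, Sftpc at 10.3% of its UMIs, just above the bound of the rule, and UMIs of 22 of 24 other AT2 identity genes. Labelled WT, the highest cell had 1395 Scgb1a1 UMIs among 26720, or 5.22% of its UMIs, with 33 Scgb3a2, 2 Cyp2f2 and 0 Scgb3a1, Sftpc at 19.6% and all 24 other AT2 identity genes. Barcodes rich in club genes (given below) held 10 to 22 of these 24 genes labelled IPKO and 18 to 24 labelled WT. This count thus does not set AT2 cells apart from club cells. Cells with Scgb1a1 at or above 1% of UMIs numbered 9 of 369 labelled IPKO and 50 of 320 labelled WT.

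No AT2 identity gene was past 1.5-fold between high and low cells, although several differed by more than counting error. Sftpc was at 209811 CPM in Scgb1a1-high cells and 208322 CPM in Scgb1a1-low cells labelled IPKO, and at 216090 and 211224 CPM labelled WT, although its lower bound was part of the rule. Of the list of 25 AT2 identity genes, 0 were past 1.5-fold in either direction in either library, and the list's median log2 ratio (high over low) was -0.01 in both. Among all genes of at least 5 CPM, 0.378% were past 1.5-fold higher and 1.1% lower labelled IPKO, and 0.768% and 3.4% labelled WT. A count of 0 among 25 genes is near those shares and is not particular to AT2 identity. The lamellar body transporter Abca3 stood at 811 and 782 CPM labelled IPKO and at 747 and 743 CPM labelled WT in high and low cells. The surfactant proteins differed in small steps: Sftpb had log2 ratios of -0.02 labelled IPKO and -0.08 labelled WT, Sftpa1 -0.10 and -0.14, and the collectin Sftpd -0.25 and -0.27. Bex2 (0.52 and 0.40) and the fatty acid desaturase Scd1 (0.25 and 0.50) were the highest of this list, and the ETS factor Etv5 (-0.15 and -0.43) and the tight junction gene Cldn18 (-0.19 and -0.35) were the lowest.

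High cells were slightly deeper than low cells, and their quality was close. Median UMIs were 18326 in high and 17088.5 in low cells labelled IPKO, and 20511.5 and 17449.5 labelled WT. Median mitochondrial shares were 4.08% in high and 3.87% in low cells labelled IPKO and 5.42% and 5.12% labelled WT. Cells above the 95th percentile of UMIs made up 6.50% of high and 3.96% of low cells labelled IPKO and 5% and 3.35% labelled WT. Markers of mesenchymal and of most immune cells were low in high cells: over 11 mesenchymal genes the sum was 3.03 CPM labelled IPKO and 0.606 CPM labelled WT, over 13 macrophage and monocyte genes 11.1 and 10.6 CPM, over 6 neutrophil genes 5.34 and 3.49 CPM, and over the 8 T and NK cell genes found in the files 2.31 and 0 CPM. In low cells the same 4 sums were 4.25, 18.8, 10.5 and 7.17 CPM labelled IPKO and 1.76, 8.81, 4.25 and 1.69 CPM labelled WT. In high cells 5 of 11 mesenchymal, 4 of 13 macrophage and monocyte and 2 of 8 T and NK cell genes were at 0 labelled IPKO, and 10, 6 and 8 labelled WT. The 12 endothelial genes summed to 82.7 CPM in high and 98.7 CPM in low cells labelled IPKO and to 68.0 and 87.5 CPM labelled WT, and the 12 ciliated cell genes to 179 and 179 CPM and to 80.9 and 122 CPM. Whether doublets are among the high cells was not tested.

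Scgb3a2 and Cyp2f2 were higher in Scgb1a1-high cells of both libraries, and Scgb3a1 was too rare to place. Scgb3a2 stayed rare, while a Cyp2f2 UMI was present in 33.9% of high cells labelled IPKO and 24.4% labelled WT. Summed over cells, Scgb3a2, Cyp2f2 and Scgb3a1 together had a log2 ratio of 1.71 (1.56 to 1.85) labelled IPKO and 1.08 (0.87 to 1.28) labelled WT, high over low cells, while the median of the 4360 genes of at least 20 CPM was -0.05 and -0.10. None of the 3 was detected in 227 of 369 high cells labelled IPKO (61.5%, exact interval 56.3% to 66.5%) and in 235 of 320 labelled WT (73.4%, 68.2% to 78.2%). In low cells none was detected in 2775 of 3690 (75.2%) and 2578 of 3196 (80.7%).

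Scgb3a2 (chromosome 18, 43764289 to 43767399, plus strand), a secretoglobin of club and other distal airway cells, had 74 UMIs in high cells labelled IPKO (10.7 CPM), 35 of them in 1 cell, against 100 UMIs in low cells (1.55 CPM). Labelled WT it had 57 UMIs in high cells (8.64 CPM), 33 of them in 1 cell, against 39 UMIs in low cells (0.674 CPM). Without the single cell with the most Scgb3a2, the high cells stood at 5.66 CPM labelled IPKO and 3.65 CPM labelled WT. A UMI of it was present in 7.32% of high and 2.57% of low cells labelled IPKO, and in 3.44% and 1.22% labelled WT. Thinned to 5000 UMIs a cell, these shares were 2.98% (1.497% to 5.27%) and 0.894% (0.616% to 1.254%) labelled IPKO, and 0.938% (0.194% to 2.72%) and 0.344% (0.172% to 0.615%) labelled WT. In non-epithelial barcodes of at least that depth, which should lack the gene, 1 of 115 labelled IPKO (0.870%, 0.0220% to 4.75%) and 0 of 35 labelled WT had a UMI, so the thinned share of high cells was not distinguishable from background at this depth.

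Cyp2f2 (chromosome 7, 27119909 to 27133660, plus strand), the P450 enzyme by which club cells activate naphthalene, had 471 UMIs in high cells labelled IPKO (68.0 CPM), 101 of them in the single highest Scgb1a1 cell, against 1460 in low cells (22.6 CPM). Without that cell the level was 53.6 CPM. Labelled WT it had 171 UMIs in high cells (25.9 CPM, at most 10 in a cell), against 936 in low cells (16.2 CPM). A UMI was present in 33.9% of high and 22.7% of low cells labelled IPKO, and in 24.4% and 17.6% labelled WT. Thinned to 5000 UMIs, the shares were 11.7% (8.56% to 15.4%) and 9.13% (8.22% to 10.1%) labelled IPKO, intervals that overlap, and 11.9% (8.54% to 15.9%) and 6.91% (6.06% to 7.85%) labelled WT, while 1 of 115 and 1 of 35 non-epithelial barcodes had one. In the top 1% of base cells by Scgb1a1 share, Cyp2f2 was at 189 CPM labelled IPKO, where 101 of 280 UMIs came from the highest cell, and at 39.5 CPM labelled WT, while up to the 99th percentile no bin was above 35.04 and 22.4 CPM. Cyp2f2 was thus also found in Scgb1a1-low AT2 cells, beyond the non-epithelial share labelled IPKO.

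Scgb3a1, a secretoglobin of proximal airway cells, was at the edge of detection. It had 3 UMIs in high cells labelled IPKO, against 9 UMIs in low cells (0.139 CPM), and 13 UMIs labelled WT, 11 of them in 1 cell, against 26 UMIs in low cells (0.449 CPM). Without that cell the high cells labelled WT stood at 0.304 CPM, below the low cells.

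Cells that carried several club genes were few. At least 10 UMIs of the 3 genes were found in 12 of 369 high cells labelled IPKO (3.25%, exact interval 1.69% to 5.61%) and in 4 of 320 labelled WT (exact interval 0.342% to 3.17%), against 0 of 3690 and 3 of 3196 low cells. At least 2 of the 3 genes were detected in 11 high cells labelled IPKO (2.98%) and 7 labelled WT (2.19%), against 26 (0.705%) and 10 (0.313%) low cells. The 2 cells with most such UMIs after the highest barcode were 1 labelled IPKO with 1083 Scgb1a1, 35 Scgb3a2 and 32 Cyp2f2 UMIs among 34512, at the 98.2 percentile of base cell depth, and the highest cell labelled WT given above, at the 92.8 percentile. Without base cells of 5 or more such UMIs, the log2 ratio of the 3 genes together was 0.59 labelled IPKO and 0.47 labelled WT. With them it was 1.71 and 1.08. These cells were left out by the same UMIs that were then measured, so a smaller ratio was largely fixed in advance.

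The proportions of the club genes were set beside those of barcodes rich in the 3 club genes. Barcodes that passed the gene and mitochondrial filters with Sftpc under 10% and the 3 genes at 0.5% of UMIs or more numbered 5 labelled IPKO and 6 labelled WT. In 4 of those labelled IPKO and all 6 labelled WT, Scgb1a1 made up 49.5% to 66.8% of UMIs. The 1 other barcode, labelled IPKO, had 12 Scgb1a1 and 214 Cyp2f2 UMIs. Per 100 Scgb1a1 UMIs, these barcodes held 4.27 (4.12 to 4.42) Scgb3a2 UMIs labelled IPKO and 2.25 (2.19 to 2.31) labelled WT. The Scgb1a1-high AT2 cells held 0.301 (0.236 to 0.378) labelled IPKO and 0.115 (0.0872 to 0.149) labelled WT. Without the highest Scgb1a1 barcode of each library, the high cells held 0.420 labelled IPKO and 0.0499 labelled WT. Non-epithelial barcodes that were not club-gene-high held 2.37 (1.08 to 4.56) labelled IPKO, on 9 Scgb3a2 UMIs. Labelled WT they held 1.33 (0.0333 to 7.66), on 1 Scgb3a2 UMI. Single club-gene-high barcodes with at least 1000 Scgb1a1 UMIs ranged from 0.868 to 11.6 Scgb3a2 UMIs labelled IPKO and from 0.487 to 8.62 labelled WT. All lay above the summed high cells. These barcodes were chosen by the 3 genes and the high cells by Scgb1a1, so part of this gap was fixed by the choice. Among the 6 high cells of each library with most UMIs of the 3 genes, Scgb3a2 stood at 3.23 and 1.64 labelled IPKO. Labelled WT it stood at 2.37, 3.16 and 4.26 per 100 Scgb1a1 UMIs. The others of the 6 held 0, and these cells were picked by the same genes.

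For Cyp2f2 the summed proportions differed in order between the libraries, with no allowance made for the Cyp2f2 that AT2 cells hold with little Scgb1a1. High cells labelled IPKO held 1.92 (1.75 to 2.10) Cyp2f2 UMIs per 100 Scgb1a1 UMIs, against 1.596 (1.51 to 1.69) in club-gene-high barcodes. High cells labelled WT held 0.346 (0.296 to 0.402), against 1.03 (0.990 to 1.07). Of the 1188 Cyp2f2 UMIs of club-gene-high barcodes labelled IPKO, 214 were in the barcode with 12 Scgb1a1 UMIs. Single club-gene-high barcodes with at least 1000 Scgb1a1 UMIs ranged from 0.0212 to 1.59 labelled IPKO and from 0.729 to 1.65 labelled WT. Low cells held 46.2 and 10.7 per 100, since Cyp2f2 was present where Scgb1a1 was near 0. The club-gene-high barcodes were chosen by the 3 genes, so their proportions are in part fixed by that choice. At these proportions, the Scgb1a1 of high cells labelled IPKO would come with 1049 Scgb3a2 and 684 Scgb3a1 UMIs, where 74 and 3 were counted. Labelled WT it would come with 1114 and 1075, where 57 and 13 were counted. The Scgb3a1 figures rest on few barcodes: 1 barcode held 1759 of 2074 Scgb3a1 UMIs of the club-gene-high barcodes labelled IPKO, and 1 held 5475 of 5476 labelled WT. Single barcodes ranged from 0 to 6.42 Scgb3a1 UMIs per 100 Scgb1a1 UMIs labelled IPKO and from 0 to 12.6 labelled WT, ranges that include the 0.0122 and 0.0263 of the high cells. Of Cyp2f2 it would come with 392 UMIs labelled IPKO, where 471 were counted, and 509 labelled WT, where 171 were counted. These counted UMIs include Cyp2f2 at the level of low cells, 22.6 CPM labelled IPKO and 16.2 CPM labelled WT, so the order labelled IPKO is not settled.

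**Figure D2:**
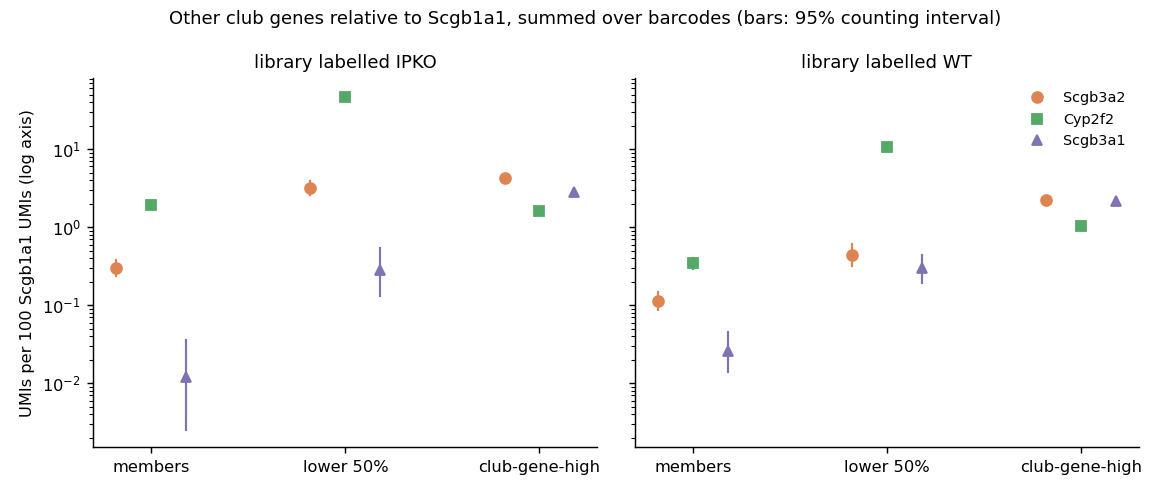
UMIs of Scgb3a2, Cyp2f2 and Scgb3a1 per 100 Scgb1a1 UMIs (vertical log axis), summed over Scgb1a1-high cells (members), Scgb1a1-low cells (lower 50%) and club-gene-high barcodes, in the library labelled IPKO (left) and labelled WT (right). Points are ratios of summed counts and bars are 95% counting intervals; Scgb3a2 sits at 0.301 and 0.115 in members and at 4.27 and 2.25 in club-gene-high barcodes.

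Scgb1a1 itself was also found outside AT2 and club-gene-high cells. Among non-epithelial barcodes (at least 3 detected markers of an endothelial, mesenchymal or immune list, Sftpc under 10%, not club-gene-high), the median count was 0 and the 90th percentile 2 UMIs in both libraries. Of these, 7 of 249 labelled IPKO (2.81%, exact interval 1.14% to 5.71%) reached the lowest count of a high cell there, 6 UMIs, and 0 of 117 labelled WT reached 46 UMIs (upper limit 3.10%). Their median depth was 4679 and 3833 UMIs, well below that of the AT2 cells. At that depth these counts are a larger share of UMIs than the lowest high cells had, 1074 and 4636 CPM. The cut was thus stricter than the rule, most of all labelled WT, where the count of 0 decides little. Thinned to 5000 UMIs, 33.0% of 115 labelled IPKO and 28.6% of 35 labelled WT held a Scgb1a1 UMI, while 21.6% and 50.03% of low AT2 cells and 100% of high cells did. Their summed level was 248 CPM labelled IPKO and 126 CPM labelled WT, where the highest barcode held 111 of 379 and 15 of 75 Scgb1a1 UMIs. The part of free RNA in the Scgb1a1 of the high cells was not tested, since droplets without cells were not used here.

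Between the libraries, Scgb1a1 was lower in the library labelled IPKO in each set of AT2 cells taken within a library. In non-epithelial barcodes that were not club-gene-high it was higher there, at 248 CPM against 126 CPM labelled WT. In high cells it stood at 3545 CPM labelled IPKO and 7499 CPM labelled WT (log2 ratio -1.08), in low cells at 48.9 and 151 CPM (-1.62), and in all base cells at 363 and 1199 CPM (-1.72). The median high cell had 1698 and 6376 CPM (-1.91), and without the single highest barcode labelled IPKO the ratio in high cells was -1.56. With 1 threshold for both libraries in place of 1 each, 52 cells labelled IPKO and 637 labelled WT were high cells. Among these the ratio turned to 1.26. The single highest barcode labelled IPKO is among the 52, and the ratio without it was not taken. Genotype and library cannot be told apart here.

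Few genes beside Scgb1a1 separated the high cells from the low cells of both libraries. Of 4360 genes that averaged 20 CPM or more, 10 (0.229%) were at least 1.5-fold higher and 23 (0.528%) at least 1.5-fold lower in high cells of both libraries. In the library labelled IPKO alone 11 (0.252%) were higher and 26 (0.596%) lower, and in the library labelled WT alone 28 (0.642%) and 81 (1.86%). Since the same cells were chosen by Scgb1a1, these counts describe the libraries and are no test.

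The paraoxonase gene Pon1 (chromosome 6, 5168090 to 5193946), a secreted esterase that is also a club cell gene, led the higher genes after Cyp2f2. It stood at 105 CPM in high and 58.2 CPM in low cells labelled IPKO (log2 ratio 0.85, 0.73 to 0.96), and at 264 and 101 CPM labelled WT (1.39, 1.32 to 1.47). A Pon1 UMI was present in 59.9% of high and 42.4% of low cells labelled IPKO, and in 88.8% and 55.6% labelled WT, and no high cell held more than 13 or 23 of them. Pon1 was also higher from bin to bin below the threshold: over the bins 0 to 50, 50 to 75, 75 to 90, 90 to 95, 95 to 99 and 99 to 100 of the Scgb1a1 percentile, it was at 58.2, 74.8, 88.1, 92.4, 103 and 112 CPM labelled IPKO and at 101, 154, 185, 212, 258 and 288 CPM labelled WT.

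The cystatin gene Cst8 (chromosome 2, 148798785 to 148805595) stood at 155 CPM in high and 85.8 CPM in low cells labelled IPKO and at 187 and 82.6 CPM labelled WT. The protease inhibitor gene Spink5 stood at 46.9 and 26.3 CPM labelled IPKO and at 104 and 52.0 CPM labelled WT. The mucosal chemokine gene Cxcl17 stood at 48.1 and 31.0 CPM and at 66.1 and 33.6 CPM. The glycoprotein gene Lrg1 had log2 ratios of 0.59 and 0.91, Itih4, which encodes a plasma protease inhibitor, 0.60 and 0.84, the collagen VI chain gene Col6a2 0.69 and 0.96, and Vpreb3, known from B cell development, 0.63 and 0.72. Fkbp11, an endoplasmic reticulum prolyl isomerase gene named after its value was seen, was the last of the 10.

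Of the 12 highest genes by the mean of both libraries, 2 were past 1.5-fold in 1 library alone. Mfsd2a, a transporter of lysophospholipids that AT2 cells use for surfactant lipid, stood at 17.9 CPM in high and 13.0 CPM in low cells labelled IPKO (0.46, 0.17 to 0.73), against 72.4 and 29.9 CPM labelled WT (1.28, 1.13 to 1.42). The P450 gene Cyp2b10 stood at 6.93 and 3.20 CPM labelled IPKO (1.11, 0.63 to 1.57) and at 150 and 102 CPM labelled WT (0.56, 0.47 to 0.66). Reads of Cyp2b10 could be shared with near-identical members of its family.

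**Figure D3:**
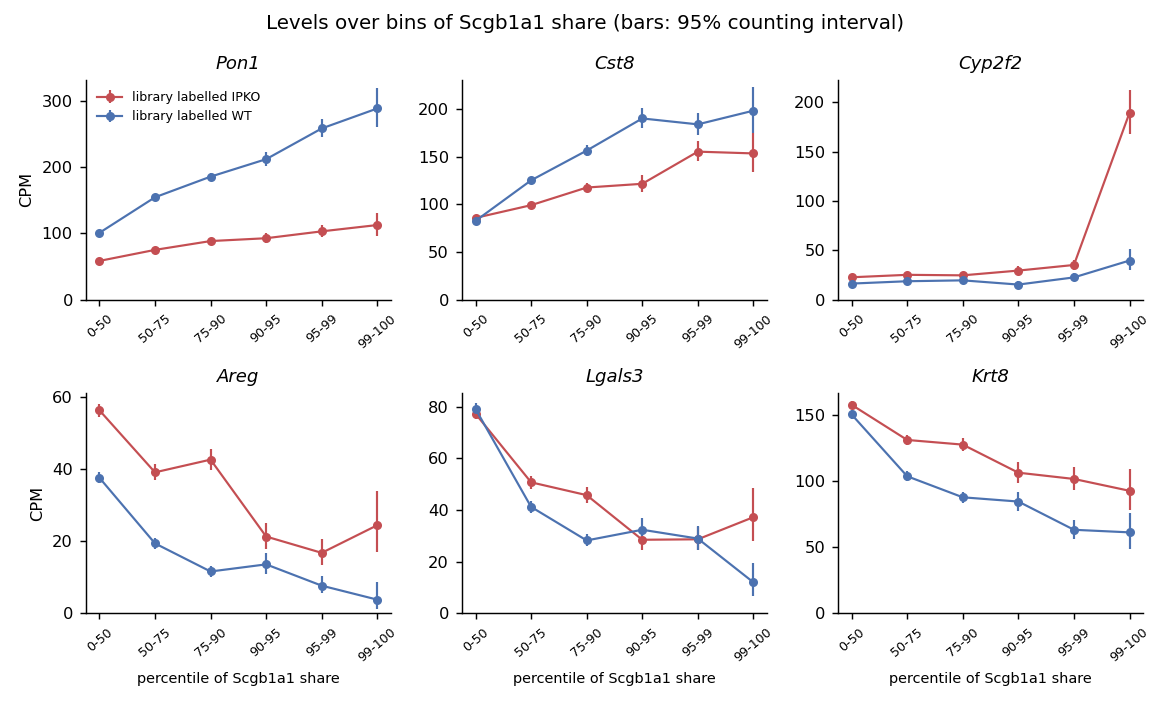
Level in CPM (vertical axis) of Pon1, Cst8, Cyp2f2, Areg, Lgals3 and Krt8 over bins of the Scgb1a1 percentile of base cells (horizontal axis), in red for the library labelled IPKO and blue for the library labelled WT, with 95% counting intervals. Pon1 goes up over all 6 bins of both libraries, Cyp2f2 labelled IPKO lies between 22.6 and 35.04 CPM up to the 99th percentile and at 189 CPM above it, and Krt8 goes down over all 6 bins.

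Genes of the transitional state were the main group lower in Scgb1a1-high cells. This state, marked by keratin 8, is known from AT2 cells on the way to AT1 cells after injury. Of 14 measured genes of a transitional list (at least 5 CPM), 7 were past 1.5-fold lower labelled IPKO and 11 labelled WT, the same 7 among them, and 0 were higher, where 1.1% labelled IPKO, 3.4% labelled WT and 0.579% in both libraries of all 8465 genes at that level were lower. The list's median log2 ratio was -0.59 labelled IPKO and -1.05 labelled WT, beside -0.06 and -0.11 over all those genes.

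The EGF receptor ligand gene Areg stood at 18.3 CPM in high and 56.2 CPM in low cells labelled IPKO (log2 ratio -1.62, -1.88 to -1.36) and at 6.82 and 37.5 CPM labelled WT (-2.46, -2.92 to -2.03). The galectin gene Lgals3 stood at 30.5 and 77.3 CPM (-1.34) and at 25.5 and 79.2 CPM (-1.64), and the keratin gene Krt8 at 99.7 and 158 CPM (-0.66) and at 62.7 and 150 CPM (-1.26). The calcium-binding protein gene S100a6 stood at 23.7 and 41.5 CPM labelled IPKO and at 3.49 and 63.5 CPM labelled WT. Of its UMIs in high cells labelled IPKO, 133 were in 1 cell, and the level without it was 4.50 CPM. Anxa1, the annexin A1 gene, had log2 ratios of -0.56 and -1.94. The p53 target and cell cycle inhibitor gene Cdkn1a, also on this list, was at 46.2 and 46.1 CPM labelled IPKO and at 45.9 and 46.0 CPM labelled WT.

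Cells high in the summed transitional list were also fewer among the high cells, a count read from the same genes. Those in its top 10% made up 13 of 369 high cells (3.52%, exact interval 1.89% to 5.95%) and 466 of 3690 low cells (12.6%, 11.6% to 13.7%) labelled IPKO. Labelled WT they made up 7 of 320 (2.19%, 0.884% to 4.45%) and 491 of 3196 (15.4%, 14.1% to 16.7%). The part of these cells in the lower genes was not tested.

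Other named genes outside the transitional list were also lower in high cells of both libraries. Ndnf, a secreted factor known from neurons and vessels, had log2 ratios of -0.87 labelled IPKO and -1.57 labelled WT, and the membrane remodelling gene Ehd2 -0.88 and -0.92. The cyclooxygenase gene Ptgs2, of the enzyme that starts prostaglandin synthesis, stood at 17.6 CPM in high and 33.0 CPM in low cells labelled IPKO (-0.91) and at 12.6 and 31.5 CPM labelled WT (-1.33). The ERK phosphatase gene Dusp6 had ratios of -0.78 and -1.06, the NF-kB inhibitor gene Nfkbia -0.62 and -1.20, and the surface protein gene Ly6c1 -0.87 and -0.95.

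**Figure D4:**
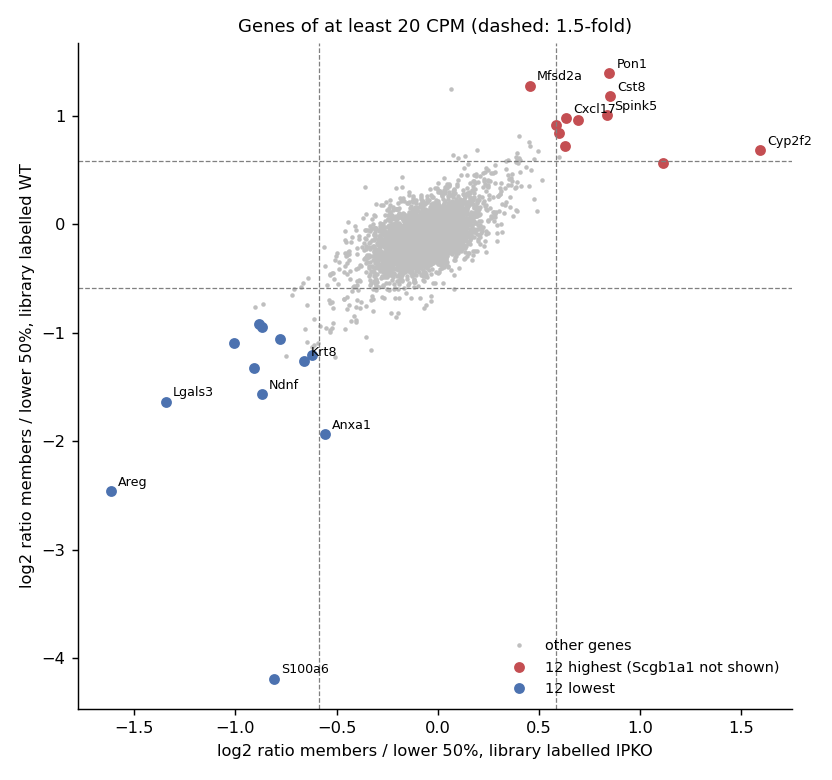
Log2 ratio of Scgb1a1-high over Scgb1a1-low cells for 4360 genes of at least 20 CPM, in the library labelled IPKO (horizontal axis) and the library labelled WT (vertical axis). Dashed lines mark 1.5-fold, red points the highest and blue points the lowest named genes, some with their names; 10 genes lie past both lines at the upper right and 23 at the lower left, S100a6 lowest at -4.19 labelled WT.

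All 6 measured antigen presentation genes of MHC class II were below 0 on the log2 scale in both libraries. AT2 cells are known to carry MHC class II without being immune cells. Of the 6, 2 were past 1.5-fold lower labelled IPKO and all 6 labelled WT, beside 1.1% and 3.4% of all genes of at least 5 CPM, with medians of -0.48 and -0.95. H2-Ab1 stood at 336 CPM in high and 526 CPM in low cells labelled IPKO and at 168 and 356 CPM labelled WT, and Cd74, the invariant chain, at 2230 and 3000 CPM and at 1061 and 1973 CPM. Without the top 10% of transitional share, an alternative added after seeing the data, the list averaged -0.65 over both libraries, against -0.71 with them. Immune cells also carry these genes. The macrophage and monocyte list summed to 11.1 CPM in high and 18.8 CPM in low cells labelled IPKO and to 10.6 and 8.81 CPM labelled WT, and the T and NK cell list to 2.31 and 7.17 CPM labelled IPKO and to 0 and 1.69 CPM labelled WT. The B cell list summed to 26.1 and 25.6 CPM labelled IPKO and to 23.5 and 22.1 CPM labelled WT, with 3 of its 4 genes in the files at 0 in high cells of each library. Their part in the MHC class II levels was not tested. By contrast the 12 measured MHC class I genes had medians of -0.03 and -0.20, and 0 were past 1.5-fold. The class I heavy chain gene H2-K1 stood at 709 and 672 CPM labelled IPKO and at 538 and 481 CPM labelled WT.

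Early response genes, which cells switch on within minutes of a stimulus or of tissue dissociation, had ratios below 0 for all 17 measured genes labelled IPKO and 16 labelled WT. Of these, 1 was past 1.5-fold lower labelled IPKO and 9 labelled WT, beside 1.1% and 3.4% of all genes of at least 5 CPM, with medians of -0.28 and -0.60. The difference between the libraries was not tested. The AP-1 gene Jun stood at 1202 CPM in high and 1486 CPM in low cells labelled IPKO and at 551 and 841 CPM labelled WT, and Nr4a1 had ratios of -0.33 and -1.16. The 1 gene past the fold labelled IPKO was Klf4 (-0.67).

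Of 18 measured genes of lipid synthesis, 13 lay above 0 labelled IPKO and 11 labelled WT. Of these, 0 were past 1.5-fold higher labelled IPKO and 3 labelled WT (Mfsd2a, the fatty acid binding protein gene Fabp5 and the lipid droplet gene Plin2), beside 0.378% and 0.768% of all genes of at least 5 CPM, with medians of 0.10 and 0.14. Fabp5 stood at 2290 CPM in high and 1735 CPM in low cells labelled IPKO and at 2052 and 1342 CPM labelled WT, and the sterol synthesis gene Sqle had ratios of 0.35 and 0.45. Srebf1 (-0.13 and -0.36), Chka (-0.20 and -0.37) and Pcyt1a (-0.22 and -0.37), of lipid control and phosphatidylcholine synthesis, lay on the other side.

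Among 11 measured genes of the club and secretory list other than Scgb1a1, 3 were past 1.5-fold higher in both libraries (Scgb3a2, Cyp2f2 and Pon1). Of all genes of at least 5 CPM, 0.378% labelled IPKO, 0.768% labelled WT and 0.236% in both were. Scgb3a2, at a mean of 5.38 CPM, passed the bound of 5 CPM only through the high cells. Low cells held 1.55 CPM of it labelled IPKO and 0.674 CPM labelled WT, so its place in this count is no support. Retnla, a resistin-like secreted protein gene, was past 1.5-fold higher labelled WT alone, at 51.5 CPM in high and 21.7 CPM in low cells. Labelled IPKO it stood at 26.7 and 25.5 CPM. The list's medians were 0.23 and 0.38. The haptoglobin gene Hp (0.23 and 0.41) and Nupr1 (0.31 and 0.38) were slightly higher, while Cbr2, a carbonyl reductase gene of club and AT2 cells, was at -0.01 and -0.30. Of the 28 list genes other than Scgb1a1, 8 had 0 UMIs in high cells labelled IPKO and 9 in those labelled WT. Of 15 measured xenobiotic genes, 2 were past 1.5-fold higher in both libraries, Cyp2f2 and the aldehyde dehydrogenase gene Aldh3a1 (1.17 in each), and the epoxide hydrolase gene Ephx1 was lower labelled WT alone (0.08 and -0.88). Secreted defence genes had medians of 0.02 and 0.03, with Cxcl17 and Lrg1 the 2 of 14 past 1.5-fold in both libraries.

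**Figure D5:**
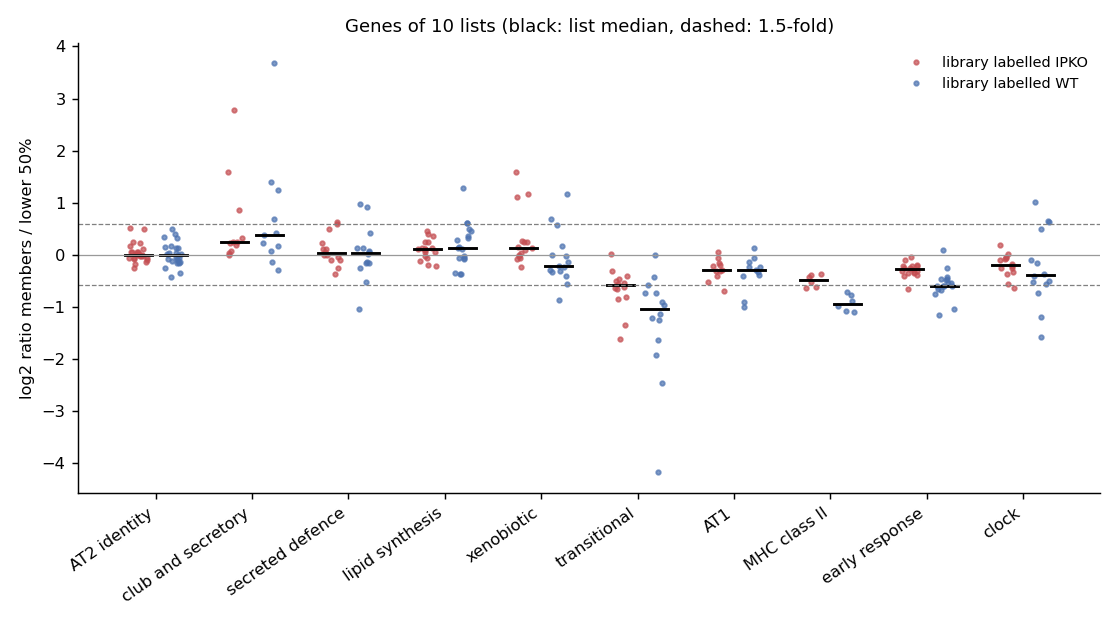
Log2 ratio of Scgb1a1-high over Scgb1a1-low cells (vertical axis) for the measured genes of 10 lists, red for the library labelled IPKO and blue for the library labelled WT, with 1 point a gene, black bars at list medians and dashed lines at 1.5-fold. AT2 identity is centred at -0.01 in both libraries, and the transitional list at -0.59 and -1.05.

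AT1 genes had medians of -0.30 and -0.29, and few were past 1.5-fold. The AT1 surface receptor gene Ager stood at 989 CPM in high and 1132 CPM in low cells labelled IPKO and at 918 and 1125 CPM labelled WT, and Hopx at 24.2 and 25.2 CPM and at 13.3 and 14.0 CPM. Of 11 measured, Akap5 was past 1.5-fold lower in both libraries (-0.70 and -1.01) and the keratin gene Krt7 in the library labelled WT (-0.90), beside 1.1% and 3.4% of all genes of at least 5 CPM.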

How the data were processed

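Cells of 1 library a genotype were counted by the authors with Cell Ranger 4.0.0 on GRCm38, per the file headers and the submitters' processing notes. No source names the annotation release. The deposited values are whole UMI counts per gene and barcode, not normalized. From these counts, UMIs were summed over Scgb1a1-high and Scgb1a1-low cells of each library and divided by the summed total (CPM), and log2 ratios were taken of the sums. Count intervals are exact Poisson, ratios and shares exact binomial (Clopper-Pearson). PCR copies are collapsed by UMI, and intervals and floors (3 counts) cover counting error only.

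With 1 library a group, no test was made. A gene counts as higher or lower past 1.5-fold, among genes averaging at least 20 CPM, or 5 CPM for the 30 lists. Named genes are Scgb1a1, Sftpc, Scgb3a2, Cyp2f2, Scgb3a1, Ptgir, the 12 highest and 12 lowest by the mean of both log2 ratios with the same sign, and the 2 highest and 2 lowest of each list. Any other gene was chosen after its values were seen. 1 gene that this rule names is not reported here. The members and lists were chosen with earlier results of these data known. Positions are from GENCODE vM21 (GRCm38), which held 27722 of 27998 features by gene ID.

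Barcodes were not corrected for free RNA or doublets. Alternatives changed the share of cells, the filters, the normalization, the depth and the comparison cells. The calculations were tested on simulated counts without added spread between cells, and with high cells set clearly apart. Those counts do not test the choice of cells on a continuous slope. Python 3.11.15, numpy 2.4.6, scipy 1.17.1, pandas 2.3.3 and matplotlib 3.10.9 were used.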

Additional observations from a re-analysis of the deposited data

How the results depend on the processing

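No paired analysis was possible because each genotype has 1 library. Counting error is the only error given. The direction of 485 of 486 values of 27 named genes and 353 of 360 values of 19 other lists was kept, and the other 1 and 7 lay on the other side of 0. Most named genes were chosen for the highest or lowest ratios in these same cells, and Scgb1a1 was set by the rule. Their kept direction was thus nearly fixed in advance and is no support. Values outside the main interval numbered 101 of 486 for named genes and 7 of 360 for those lists. Where values below left the main interval, the cause was not tested. Genes past 1.5-fold in both libraries numbered 10 higher and 23 lower. At a mean of at least 5 CPM these were 20 and 49, at 100 CPM 4 and 5, at 2-fold 0 and 3, 44 and 101 at a ratio of 5 to 4, with the top 10% 2 and 11, against all other base cells 4 and 7, and thinned to 5000 UMIs 6 and 14. There were 5 higher genes when cells were chosen on one part of the UMIs and measured in the other, and 5 with 1 threshold for both libraries. Without the top 10% of transitional share there were 5 lower genes, 4 of them among the 23, but those cells were chosen by genes that are among the lower ones, which fixes a smaller difference. The log2 ratio of the 3 other club genes (1.71 labelled IPKO, 1.08 labelled WT) was 2.44 and 1.598 with the top 2%, 1.2501 and 0.61 with the top 10%, 0.59 and 0.47 without cells of 5 or more of their UMIs, and 3.53 and 0.61 with 1 threshold. Labelled WT it was 3.27 with Sftpc at least 5%. Labelled IPKO it was 0.97 with Sftpc at least 20%, 1.29 thinned, 1.54 without cells above the 95th UMI percentile, 1.42 without the highest high cell and 1.39 without the top 10% of transitional share. The Scgb1a1 ratio of the library labelled IPKO over that labelled WT in high cells (-1.08) turned to 1.26 with 1 threshold. It was -0.66 with the top 2%, -1.35 with the top 10%, -1.86 with Sftpc at least 5%, -1.63 at 20%, -1.25 thinned, -1.22 with cells weighted equally and -1.16 with median-of-ratios size factors. It was -1.81 without cells of 5 or more other club UMIs, -1.56 without the highest cell labelled IPKO and -1.57 without the top 10% of transitional share. The MHC class II list (-0.71) stood at -0.95 with the top 2%, -0.61 with the top 10%, -0.56 against all other cells, -0.64 with median-of-ratios factors and -0.65 without the top 10% of transitional share, where the transitional list (-0.82) stood at -0.47. Scgb3a2 per 100 Scgb1a1 UMIs in club-gene-high barcodes labelled WT was 3.73 at 1% of UMIs, against 2.25. The alternative without cells of 5 or more other club UMIs left cells out by the UMIs measured. A smaller ratio of the 3 genes was thus largely fixed in advance. The alternatives without the highest cell and without the transitional share were added after seeing the data.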

Other observations

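Clock genes lay on both sides. Of 14 measured, 3 were past 1.5-fold higher labelled WT and 0 labelled IPKO, while 3 were lower labelled WT and 1 labelled IPKO, none of them in both. Of all genes of at least 5 CPM, 0.768% were higher and 3.4% lower labelled WT, and 0.378% and 1.1% labelled IPKO. The activator gene Npas2 stood at 13.5 CPM in high and 6.67 CPM in low cells labelled WT, against 15.4 and 18.5 CPM labelled IPKO. The output gene Dbp stood at 7.12 and 21.4 CPM labelled WT, against 2.60 and 3.39 CPM labelled IPKO, and Tef at 8.49 and 19.6 CPM labelled WT, against 8.23 and 8.63 CPM labelled IPKO. Nr1d1, which encodes the repressor REV-ERB alpha, was at 65.0 CPM in high and 91.9 CPM in low cells labelled WT, and at 2.89 and 4.50 CPM labelled IPKO. The library labelled WT thus held much more Nr1d1 in both kinds of cell than the library labelled IPKO. The time of collection is not given in the labels, and the difference between the libraries was not tested.

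Prostaglandin synthesis genes lay on both sides. Ptges, a prostaglandin E synthase gene, stood at 16.6 CPM in high and 12.6 CPM in low cells labelled IPKO and at 33.9 and 19.3 CPM labelled WT, and the cyclooxygenase gene Ptgs1 at 114 and 110 CPM and at 150 and 125 CPM, while Ptgs2 was lower in both libraries. Of 14 measured p53 target genes, Plk2, a polo-like kinase gene, was past 1.5-fold lower in both libraries (log2 ratios -0.91 and -1.38) and Perp, a desmosomal protein gene, labelled WT alone (-0.29 and -0.95). Among all genes of at least 5 CPM, 1.1% were lower labelled IPKO, 3.4% labelled WT and 0.579% in both. Ccng1 was at 0.23 and -0.20, and the list's medians were -0.08 and -0.25.

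Of 4 measured Notch pathway genes, 1 was past 1.5-fold lower labelled IPKO and 3 labelled WT, beside 1.1% and 3.4% of all genes of at least 5 CPM. The ligand gene Jag1 was past 1.5-fold lower in both libraries (-0.71 and -0.59), while the target gene Hes1 had log2 ratios of -0.33 and -0.70 and Notch1 of -0.09 and -0.68. Notch2 was at 0.11 and 0.09. Of 15 measured epithelial transcription factor genes, 0 were past 1.5-fold, and Nkx2-1, the lung epithelial factor, stood at 353 CPM in high and 371 CPM in low cells labelled IPKO and at 289 and 316 CPM labelled WT. Pglyrp1, which encodes a peptidoglycan recognition protein, was the 1 secreted defence gene past 1.5-fold lower, labelled WT (-0.36 and -1.05).

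In the remaining lists small numbers of genes were past 1.5-fold, as among all genes. Among all genes of at least 5 CPM, 0.378% were higher and 1.1% lower labelled IPKO, and 0.768% and 3.4% labelled WT. Of 16 measured endoplasmic reticulum stress genes, Trib3 was past it labelled WT, and 0 of 13 heat shock genes and 0 of 7 interferon genes were, in either direction and library. Of 8 measured glucocorticoid response genes, Dusp1 was past it labelled WT (-0.41 and -0.77). Of 3 measured cycling genes 0 were past it. Of 3 measured ciliated cell genes, Tppp3 was past it labelled WT (-0.45 and -0.78), and the basal and goblet cell list summed to 2.02 CPM in high and 2.21 CPM in low cells labelled IPKO and to 1.06 and 1.95 CPM labelled WT. The neuroendocrine list summed to 0.144 and 0.665 CPM labelled IPKO and to 0.455 and 0.622 CPM labelled WT, and the haemoglobin list to 4.91 and 6.12 CPM and to 0.455 and 0.138 CPM.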
